A study of Mus musculus with 3 samples.

Results

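The 10 genes described here belong to the circadian clock and its first output layer: Clock, Npas2, Per1, Per2, Per3, Cry1, Nr1d1, Nr1d2, Dbp and Nfil3. They were picked by symbol from the 35275 genes of the deposited table, and each symbol matched 1 row. The RNA came from livers of male C57BL/6J mice, 10 weeks old when the diets began, and was read in 3 libraries, 1 for each group. The TH-treated NASH library was made from mice fed WDF, a western diet with liquid fructose, for 16 weeks and then given the thyroid hormones T3 (35 ng/g) and T4 (7 ng/g) in drinking water holding 15% fructose (w/v) for the next 8 weeks. The NASH library, after nonalcoholic steatohepatitis, was from mice on WDF without hormone, with 24 weeks in its label. The control library came from untreated mice on normal chow (NCD), with no total of weeks and no age at collection in its labels. The labels give no hour of tissue collection and no feeding state, and whether animals were pooled is not stated, so hour, feeding state and group cannot be told apart. With 1 library per group there is no replicate check and no test between groups. All differences below are between libraries, and every interval is a 95% interval for counting error only, since PCR copies are not independent molecules.

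The mammalian clock is a transcriptional feedback loop that runs in nearly every liver cell. CLOCK, or its relative NPAS2, pairs with BMAL1 (gene Arntl) and activates genes through E-box elements. The PER and CRY proteins, made from such genes, return to the nucleus and repress that pair, while REV-ERBs (Nr1d1, Nr1d2) and RORs compete on a further element to set the level of Arntl, Clock, Npas2 and Nfil3. DBP and NFIL3 carry the rhythm onward, as an activator and a repressor on D-box elements. In mouse liver, Nr1d1, Dbp and the Per genes peak through the day and early evening, in opposite phase to Arntl and Npas2, and feeding time, glucocorticoids and temperature also act on them.

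These elements can be looked for in the sequence just before RefSeq transcript starts of the members. RefSeq promoter windows (GRCm38.p6) were found for 9 of the 10 members and searched over the 250 bases before each start, on both strands, for CACGTG (E-box), CACGTT (E′-box), TTATGTAA (D-box), TTATGCAA (a D-box variant) and AGGTCA (the half-site of REV-ERB and ROR elements). The stretches below are from all 7 members whose windows held any of these elements, 5′ to 3′ on the gene's strand, with every match in capitals; a match on the opposite strand appears as its reverse complement, AACGTG for the E′-box and TGACCT for the half-site. No matches overlapped in these windows.
Per1, chr11:69098763-69098948, plus strand: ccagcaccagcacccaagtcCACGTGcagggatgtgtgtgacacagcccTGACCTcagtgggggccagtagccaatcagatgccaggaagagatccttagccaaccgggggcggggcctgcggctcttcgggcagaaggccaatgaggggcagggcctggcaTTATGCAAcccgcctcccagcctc
Per3, chr4:151044796-151044890, minus strand: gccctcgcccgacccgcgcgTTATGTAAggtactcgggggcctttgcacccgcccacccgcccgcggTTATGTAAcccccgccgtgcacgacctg
Cry1, chr10:85185089-85185153, minus strand: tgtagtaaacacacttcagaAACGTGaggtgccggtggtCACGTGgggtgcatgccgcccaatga
Nr1d1, chr11:98775380-98775425, minus strand: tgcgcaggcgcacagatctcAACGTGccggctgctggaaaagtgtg
Nr1d2, chr14:18239158-18239203, minus strand: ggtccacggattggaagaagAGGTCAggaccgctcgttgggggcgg
Nfil3, chr13:52981040-52981071, minus strand: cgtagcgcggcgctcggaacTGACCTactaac
Clock, chr5:76303596-76303641, minus strand: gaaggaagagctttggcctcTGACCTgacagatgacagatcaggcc
The Per1, Clock and Nfil3 stretches lie inside the gene spans of the deposited table, before RefSeq starts that are downstream of the listed ones: the Per1 stretch ends 3731 bases, the Clock stretch 952 bases and the Nfil3 stretch 33 bases downstream of the listed start.
The 9 members had 12 windows, and the counts that follow are of windows. The E-box was in 2 of the 12 (Cry1 and Per1), against 6.02% of all 32851 windows. The E′-box was in 2 (Cry1 and Nr1d1), against 3.85% of all windows. The D-box was in 1, Per3, which held it at 205 and at 158 bases before the start, against 0.819% of all windows. The D-box variant was in 1, Per1, against 0.694%, and the AGGTCA half-site in 4 (Clock, Nfil3, Nr1d2 and Per1), against 14.02%. A match is a run of letters and not a shown binding site.

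The libraries held 38303410 fragments on genes in TH-treated NASH, 47009255 in NASH and 54576236 in control. Levels are FPKM, a fragment count divided by gene length in kilobases and by the library's fragments (on the usual FPKM scale), as the authors deposited them. For Npas2, the scarcest member, a floor of 3 counts is 0.0185 FPKM in TH-treated NASH, 0.0151 in NASH and 0.0130 in control. Dio1, the deiodinase gene that thyroid hormone induces, stood at 429.7 FPKM in TH-treated NASH, 129 in NASH and 90.3 in control. None of the 9 hepatocyte markers found was at 0 in any library, and their sum was 34330 FPKM in TH-treated NASH, 38356 in NASH and 55265 in control. The order of TH-treated NASH and NASH in this sum depended on single genes. Without Alb, the albumin gene, the other 8 summed to 19423 FPKM in TH-treated NASH, 18091 in NASH and 22580.4 in control. Apoa1, the largest of those 8 in each library, stood at 10408 FPKM in TH-treated NASH against 7434 in NASH. Of the 9 markers, 5 were higher and 4 lower in TH-treated NASH than in NASH. The sum of 10 macrophage markers was 738 FPKM in TH-treated NASH, 611 in NASH and 196 in control. Of these 10, 6 were higher and 4 lower in TH-treated NASH than in NASH, with Clec4f at 130 FPKM against 59.9 and Gpnmb at 0.124 against 5.19. The sum of 10 stellate and matrix markers was 114 FPKM in TH-treated NASH, 163 in NASH and 78.8 in control. Dcn made up 79.3 FPKM of this sum in TH-treated NASH, 101 in NASH and 57.2 in control. Of these 10, 2 were higher and 8 lower in TH-treated NASH than in NASH. Against control, 8 were higher and 2 lower in TH-treated NASH. Col1a1 stood at 1.23 FPKM in TH-treated NASH, 6.81 in NASH and 1.31 in control. The sum of 8 endothelial markers was 96.0 FPKM in TH-treated NASH, 90.3 in NASH and 76.1 in control. Of these 8, 3 were higher and 5 lower in TH-treated NASH than in NASH, and Clec4g, one of the 3, stood at 42.4 FPKM against 35.2. The sum of 9 leukocyte markers was 94.2 FPKM in TH-treated NASH, 17.7 in NASH and 8.61 in control. S100a8 and S100a9, genes of neutrophil calprotectin, made up 84.4 FPKM of the leukocyte sum in TH-treated NASH, 7.85 in NASH and 4.34 in control, and the other 7 summed to 9.77 FPKM in TH-treated NASH, 9.90 in NASH and 4.27 in control. None of these markers was at 0 in any library. The clock runs in all of these cell types, and in bulk tissue fewer cells of a type and less RNA per cell cannot be told apart; the part of cell makeup in the values below was not tested.

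Across the 3 libraries the levels of these genes kept nearly the same order. Dbp was the most abundant member and Npas2 the least abundant in each library, with Clock and Cry1 next above Npas2. Nr1d1 and Nr1d2 came next below Dbp, and Per1, Per2, Per3 and Nfil3 held the middle. The largest difference among the 9 members above 1 FPKM was in Nr1d1, which stood at 16.9 FPKM in TH-treated NASH, 33.0 in NASH and 34.2 in control. TH-treated NASH was the lowest of the 3 libraries for 7 of the 10 members, control for none. These 7 include Cry1, within counting error of control, and Npas2, on 3 fragments in TH-treated NASH. The share of all genes with TH-treated NASH lowest was not counted.

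**Figure D1:**
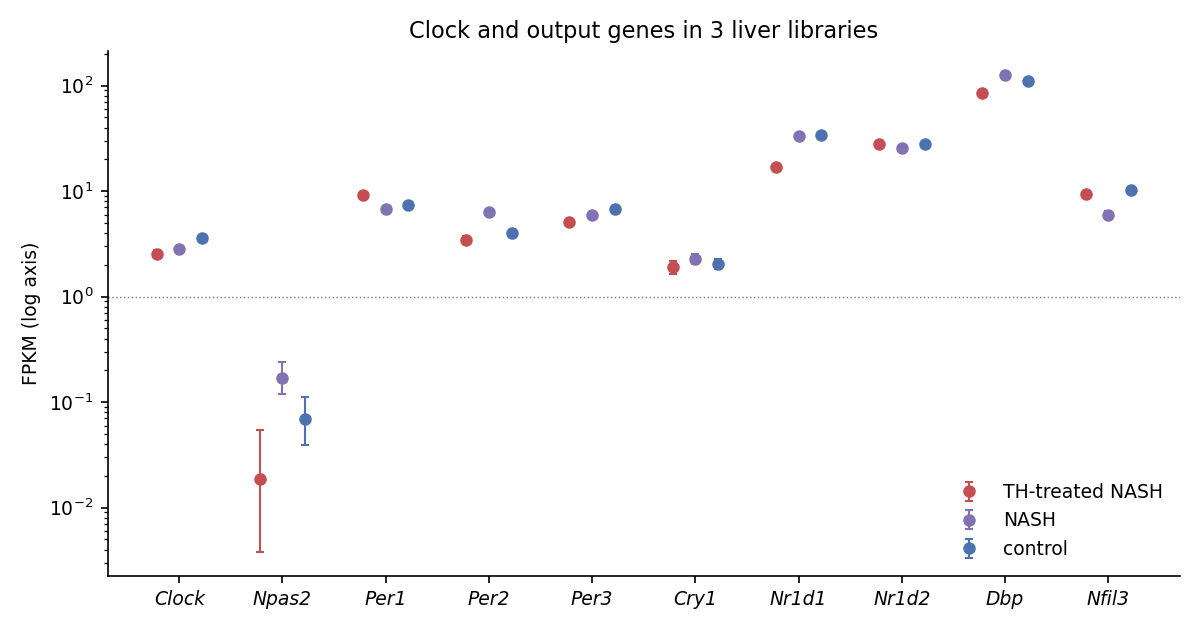
FPKM of the 10 members (log axis) in the TH-treated NASH, NASH and control libraries, 1 point per library, with exact Poisson 95% intervals that cover counting error only; the dotted line marks 1 FPKM. Dbp lies highest, between 84.5 and 125 FPKM, the Npas2 points lie below 0.2 FPKM, and Nr1d1 is lower in TH-treated NASH (16.9) than in NASH (33.0) and control (34.2).

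TH-treated NASH against NASH sets 16 weeks of WDF followed by 8 weeks of hormone in fructose water beside WDF without hormone. Whether the western diet went on during those 8 weeks is not given here. Nr1d1, Per2 and Dbp were lower in TH-treated NASH, and Nfil3 and Per1 were higher, each by less than 2-fold. Differences are given as log2(FPKM + 1) of the first library minus that of the second, which makes the fold of low genes look smaller than it is. On this scale 0 of the 9 members of at least 1 FPKM in any library reached 2-fold in either direction. Of the 11734 genes that reached 1 FPKM in one library or the other, 5.5% did (2.73% higher and 2.77% lower). Npas2, below 1 FPKM in each library, could not reach 2-fold on this scale and is left out of these counts. At 1.5-fold, 2 members were lower (Nr1d1 and Per2) against 9.03% of all genes, and 0 were higher against 8.49%; Nfil3, at 0.58, lay just below that bound. Over the 9 members of at least 1 FPKM in any library, the median difference was −0.18, against −0.03 for all genes compared. Nr1d1 was the single member outside the central 90% of all genes, which ran from −0.78 to 0.77.

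NASH against control sets the western diet with liquid fructose beside normal chow. The control labels give no total of weeks and no age at collection. Nfil3 was lower in NASH and Per2 higher, while Nr1d1, Cry1, Dbp and Per1 lay close to control. None (0) of the 9 members of at least 1 FPKM reached 2-fold in either direction. Of 11499 genes, 4.1% did (3.33% higher and 0.774% lower). At 1.5-fold, 1 member was lower, Nfil3, against 2.57% of all genes, and 0 were higher against 10.5%. The members' median was −0.10, against 0.12 for all genes, and Nfil3 was the single member outside the central 90% of all genes, from −0.39 to 0.85. The median of all genes was −0.06 after median-of-ratios or TMM (trimmed mean) scaling, a shift of more than 0.1. Under those scalings the members' median was −0.29, and Dbp and Cry1, slightly higher in NASH as deposited, turned slightly lower, at −0.05 and −0.04. Nr1d1 was then at −0.26 and Per1 at −0.29.

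TH-treated NASH was also set against control; these 2 libraries also serve in the comparisons above, so the 3 sets of differences are not independent. Nr1d1 was again the member furthest off, and Nr1d2, Cry1 and Nfil3 lay near their control levels. On the log2(FPKM + 1) scale 0 of the 9 members of at least 1 FPKM reached 2-fold in either direction. Of 11474 genes, 7.99% did (5.57% higher and 2.42% lower). Nr1d1, at −0.98, missed that bound narrowly, and it passed it at −1.15 and −1.16 after median-of-ratios and TMM scaling. At 1.5-fold, 1 member was lower, Nr1d1, against 6.98% of all genes, and 0 were higher against 15.8% (22.8% in either direction). The members' median was −0.16, against 0.12 for all genes. Of the 9 members of at least 1 FPKM, 8 were below 0, Per1 being the exception, but Nr1d2 and Cry1 were within counting error of control. The share of all genes below 0 was not counted. Nr1d2, level as deposited, was at −0.19 after TMM scaling. The members' median was then −0.32 and that of all genes −0.04, and after median-of-ratios scaling they were −0.31 and −0.03.

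**Figure D2:**
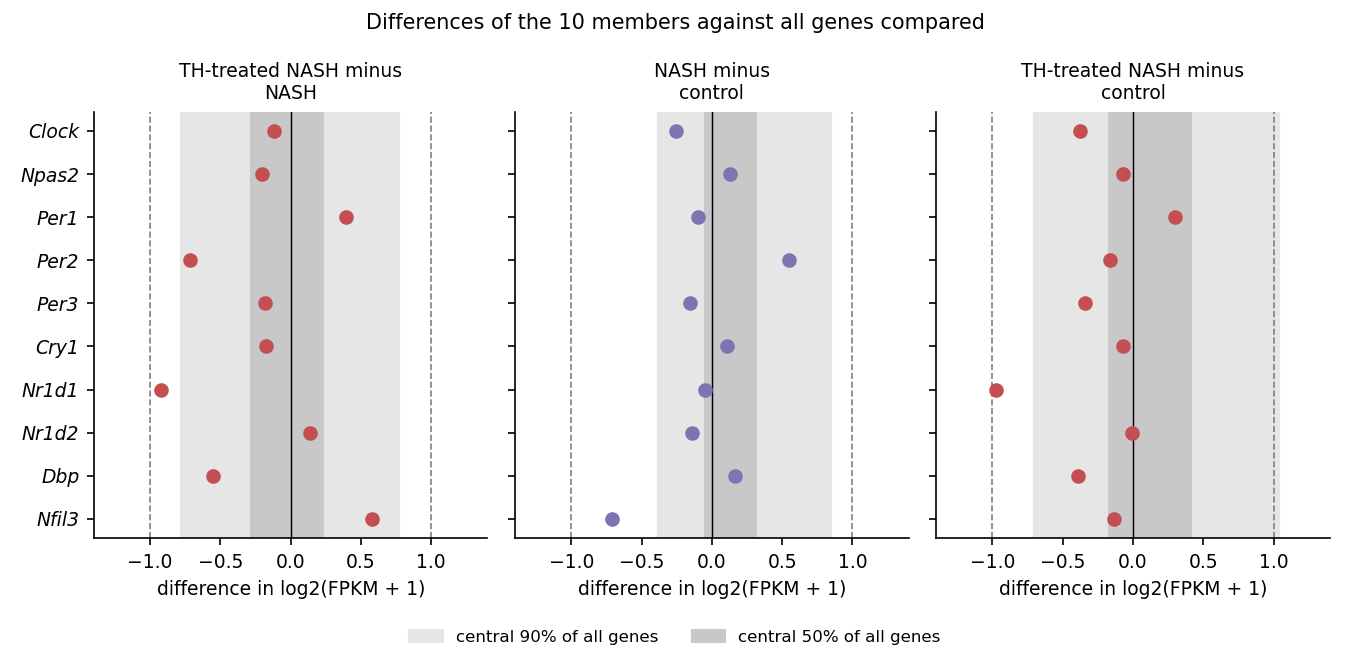
Differences in log2(FPKM + 1) of the 10 members for the 3 comparisons, 1 point per gene, over the central 50% (dark) and 90% (light) of all genes compared; dashed lines mark 2-fold. Nr1d1 lies left of the light band in both comparisons that involve TH-treated NASH (−0.92 and −0.98), Nfil3 lies left of it for NASH minus control (−0.71), and no point passes a dashed line.

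Among the activators, Clock encodes the histone-acetylating partner of BMAL1. Clock stood at 2.55 FPKM in TH-treated NASH, 2.85 in NASH and 3.60 in control, on 730, 1002 and 1471 fragments. It was lowest in TH-treated NASH and highest in control, and the ratio of each neighbouring pair lay outside counting error: 1.12-fold lower in TH-treated NASH than in NASH (interval 1.02 to 1.23) and 1.26-fold lower in NASH than in control (1.17 to 1.37). Over the whole step, TH-treated NASH was 1.41-fold below control (1.29 to 1.55). Npas2, which can take the place of CLOCK, was scarcely detected. Npas2 stood at 0.0185 FPKM on 3 fragments in TH-treated NASH, 0.171 FPKM on 34 fragments in NASH and 0.0692 FPKM on 16 fragments in control. It was highest in NASH, and the ratio of TH-treated NASH to NASH was 9.23-fold lower with a wide interval (2.90 to 47.0). NASH was 2.47-fold higher than control (1.33 to 4.79), and TH-treated NASH was 3.74-fold lower than control (1.07 to 20.05). Npas2 was below 1 FPKM everywhere, so on the log2(FPKM + 1) scale its differences were small, at −0.20 and 0.13. Their partner Arntl, which is no member, was also low, at 0.692 FPKM in TH-treated NASH, 0.505 in NASH and 0.448 in control, and the ratio of TH-treated NASH to NASH was within counting error (1.37-fold, interval 0.977 to 1.92), while that of TH-treated NASH to control was 1.55-fold (1.10 to 2.16).

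The repressor genes of the loop did not share one order across the libraries. Per1, which glucocorticoids also induce, stood at 9.25 FPKM in TH-treated NASH, 6.79 in NASH and 7.32 in control. It was highest in TH-treated NASH, 1.36-fold above NASH (1.27 to 1.46) and 1.26-fold above control (1.18 to 1.35), while NASH was 1.08-fold below control (1.01 to 1.15). Per2, its close relative, had the reverse order: 3.47 FPKM in TH-treated NASH, 6.33 in NASH and 4.01 in control. Per2 was thus highest in NASH, 1.58-fold above control (1.47 to 1.70), and TH-treated NASH was 1.82-fold below NASH (1.68 to 1.99) and 1.16-fold below control (1.06 to 1.27). Per3, whose product has a lesser part in the loop, stood at 5.13 FPKM in TH-treated NASH, 5.96 in NASH and 6.75 in control. Its steps were small, 1.16-fold lower in TH-treated NASH than in NASH (1.08 to 1.25) and 1.13-fold lower in NASH than in control (1.06 to 1.21), which left TH-treated NASH 1.32-fold below control (1.23 to 1.41). Cry1, the cryptochrome that represses most strongly, stood at 1.90 FPKM in TH-treated NASH, 2.28 in NASH and 2.04 in control, on 219, 323 and 336 fragments. Neighbours in order of level lay within counting error of each other, and TH-treated NASH was 1.20-fold below NASH (1.01 to 1.43).

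The REV-ERB genes, which encode heme-binding repressors of Arntl transcription, differed from each other. Nr1d1 (REV-ERBα) stood at 16.9 FPKM in TH-treated NASH, 33.0 in NASH and 34.2 in control, on 1762, 4220 and 5084 fragments. TH-treated NASH was the low library, 1.95-fold below NASH (1.85 to 2.06) and 2.03-fold below control (1.92 to 2.14). NASH and control lay within counting error of each other, at 1.04-fold (0.996 to 1.08). Nr1d2 (REV-ERBβ), which overlaps with Nr1d1 in function, stood at 28.1 FPKM in TH-treated NASH, 25.5 in NASH and 28.1 in control. TH-treated NASH and control were within counting error for Nr1d2, and TH-treated NASH was 1.10-fold above NASH (1.06 to 1.14). Nr1d1 was the more abundant of the pair in NASH and control and the less abundant in TH-treated NASH.

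The span of Nr1d1 in the deposited table overlaps that of Thra, the thyroid hormone receptor alpha gene on the opposite strand, over 1075 bases. How counting treated strand is not stated, so reads from the shared stretch cannot be told apart. Thra stood at 4.09 FPKM in TH-treated NASH, 7.40 in NASH and 5.77 in control, on 384, 853 and 772 fragments. It too was lowest in TH-treated NASH, although with far fewer fragments than Nr1d1 in each library, and its part in the Nr1d1 values was not tested. The spans of Dbp (Sphk2, opposite strand, 689 shared bases), Per3 (inside Camta1, same strand) and Npas2 (pseudogenes with 0 fragments) also overlap other listed genes. Sphk2, a sphingosine kinase gene, stood at 20.96 FPKM in TH-treated NASH, 19.1 in NASH and 15.4 in control, and Camta1 between 0.554 and 0.583 FPKM.

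The output genes Dbp and Nfil3, which act on D-box elements in opposite senses, differed in opposite directions in TH-treated NASH against NASH and in NASH against control, apart from the Dbp sign noted above. Dbp stood at 84.5 FPKM in TH-treated NASH, 125 in NASH and 111 in control, on 5793, 10487 and 10872 fragments. It was lowest in TH-treated NASH, 1.48-fold below NASH (1.43 to 1.52) and 1.32-fold below control (1.28 to 1.36), and NASH was 1.12-fold above control (1.09 to 1.15). Nfil3, the D-box repressor also known as E4BP4, stood at 9.32 FPKM in TH-treated NASH, 5.91 in NASH and 10.3 in control, on 723, 563 and 1142 fragments. For Nfil3, NASH was the low library, 1.75-fold below control (1.58 to 1.94). TH-treated NASH was 1.58-fold above NASH (1.41 to 1.76) and 1.11-fold below control (1.01 to 1.22).

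As the table gives them, Nr1d1 (ENSMUSG00000020889) lies on chromosome 11 from 98767932 to 98775333, Per2 (ENSMUSG00000055866) on chromosome 1 from 91415982 to 91459324, Dbp (ENSMUSG00000059824) on chromosome 7 from 45705088 to 45710155 and Nfil3 (ENSMUSG00000056749) on chromosome 13 from 52967209 to 52981073. All 10 members are protein-coding and overlap their gene in GENCODE M21 (GRCm38), 6 of them with identical ends. The remaining members are Clock (ENSMUSG00000029238, chromosome 5, 76212177 to 76304548), Npas2 (ENSMUSG00000026077, chromosome 1, 39193731 to 39363234), Per1 (ENSMUSG00000020893, chromosome 11, 69095217 to 69109960), Per3 (ENSMUSG00000028957, chromosome 4, 151003652 to 151044665), Cry1 (ENSMUSG00000020038, chromosome 10, 85131702 to 85185054) and Nr1d2 (ENSMUSG00000021775, chromosome 14, 18204054 to 18239127). The table names no genome build, so these positions are as it gives them.

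A ratio of 2 members inside 1 library does not depend on how libraries are scaled. The pairs shown were chosen after their values were seen, and they are a description. Nr1d1 over Nr1d2 was 0.603 in TH-treated NASH (0.570 to 0.636), 1.30 in NASH (1.24 to 1.35) and 1.22 in control (1.17 to 1.26), so TH-treated NASH alone had more Nr1d2 than Nr1d1. Per1 over Per2 was 2.67 in TH-treated NASH (2.45 to 2.91), 1.07 in NASH (1 to 1.15) and 1.83 in control (1.70 to 1.96), so the pair was nearly even in NASH. Dbp over Nfil3 was 9.07 in TH-treated NASH (8.40 to 9.82), 21.1 in NASH (19.4 to 23.0) and 10.8 in control (10.1 to 11.5). For this activator and repressor pair NASH was the library apart, at 1.96 times the control ratio, and TH-treated NASH was near control. Nr1d1 over Clock was 6.63 in TH-treated NASH (6.08 to 7.24), 11.6 in NASH (10.8 to 12.4) and 9.50 in control (8.96 to 10.1).

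**Figure D3:**
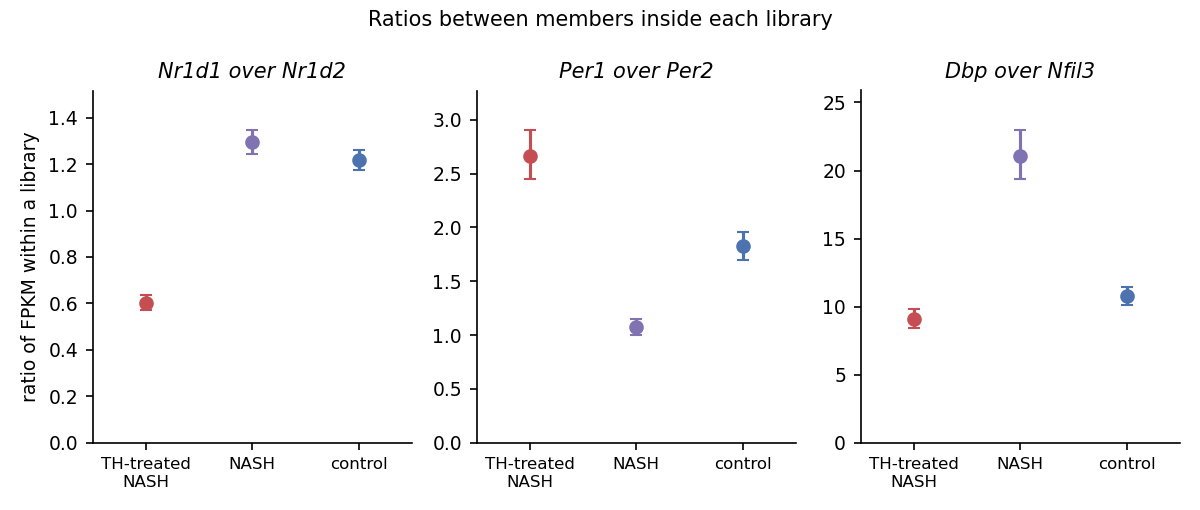
FPKM ratios of 3 pairs of members inside each library, with exact 95% intervals for counting error, 1 library per point. Nr1d1 over Nr1d2 is low in TH-treated NASH (0.603), whereas Per1 over Per2 is lowest and Dbp over Nfil3 highest in NASH (1.07 and 21.1).

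Of the 14 other genes of the clock loop, 10 reached 1 FPKM in any library; Arntl, its paralog Arntl2, Fbxl21 (an F-box protein gene) and Timeless did not. Arntl2 stood at 0.670 FPKM in TH-treated NASH, 0.422 in NASH and 0.351 in control, Fbxl21 at 0.402 FPKM in TH-treated NASH, 0.503 in NASH and 0.199 in control, and Timeless at 0.822 FPKM in TH-treated NASH, 0.898 in NASH and 0.609 in control. In TH-treated NASH against NASH 1 of these 10 was at least 2-fold lower and 0 higher, against 2.77% lower and 2.73% higher of all genes, with a median difference of −0.22. The lower gene was Bhlhe41, which encodes the E-box repressor DEC2, at 0.221 FPKM in TH-treated NASH, 1.65 in NASH and 1.22 in control, 7.46-fold below NASH (5.59 to 10.1). Its relative Bhlhe40 (DEC1) was nearly level, at 33.5 FPKM in TH-treated NASH, 37.9 in NASH and 38.1 in control. Rora, an activator that competes with the REV-ERBs, stood at 4.50 FPKM in TH-treated NASH, 5.69 in NASH and 7.15 in control. Ciart, which encodes the repressor CHRONO, was the one gene past 1.5-fold higher, at 7.84 FPKM in TH-treated NASH, 4.53 in NASH and 4.52 in control, 1.73-fold above NASH (1.52 to 1.97). Cry2, the other cryptochrome gene, stood at 8.69 FPKM in TH-treated NASH, 10.7 in NASH and 12.3 in control. The products of the casein kinase genes Csnk1d and Csnk1e and of the ubiquitin ligase gene Btrc set the turnover of PER and CRY proteins, and each of these genes differed by less than 1.5-fold between libraries. Csnk1d stood at 20.4 FPKM in TH-treated NASH, 18.8 in NASH and 18.5 in control, and Csnk1e at 3.04 FPKM in TH-treated NASH, 3.44 in NASH and 2.47 in control. Btrc stood at 2.04 FPKM in TH-treated NASH, 2.29 in NASH and 2.08 in control. In NASH against control 0 of the 10 passed 1.5-fold in either direction, against 10.5% higher and 2.57% lower of all genes. The median was 0.02, and −0.18 after either rescaling named above. In TH-treated NASH against control 0 of the 10 passed 2-fold on the log2(FPKM + 1) scale, against 5.57% higher and 2.42% lower of all genes. On that scale Ciart was past 1.5-fold higher and Bhlhe41 past 1.5-fold lower. By FPKM ratio Bhlhe41 was 5.49-fold below control (4.11 to 7.48). The median was −0.22, or −0.38 and −0.40 after median-of-ratios and TMM scaling.

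Genes that the liver clock drives, from a list of 20, were found in both directions. In TH-treated NASH against NASH 3 were at least 2-fold higher and 2 lower, against 2.73% and 2.77% of all genes, with a median difference of 0.18. Lpin1, a phosphatidate phosphatase gene, was at 55.2 FPKM in TH-treated NASH against 8.67 in NASH, 6.37-fold higher, and the lipase gene Pnpla2 was 2.52-fold and the cell cycle inhibitor gene Cdkn1a 2.70-fold higher. Wee1, a mitotic kinase gene under E-box control, was at 1.52 FPKM in TH-treated NASH against 5.83 in NASH, 3.84-fold lower, and the glucose transporter gene Slc2a2 was 2.16-fold lower. Tef and Hlf, the PAR-bZIP relatives of Dbp, differed by less than 1.5-fold between libraries and, like Dbp, were lowest in TH-treated NASH: Tef at 46.1 FPKM in TH-treated NASH, 50.1 in NASH and 57.95 in control, Hlf at 8.70 FPKM in TH-treated NASH, 11.6 in NASH and 12.3 in control. Usp2, a ubiquitin protease gene with a strong liver rhythm, was level at 11.5 FPKM in TH-treated NASH, 11.8 in NASH and 12.0 in control. In NASH against control 2 of the 20 were at least 2-fold higher (Cdkn1a and the lysolipid transporter gene Mfsd2a, 17.4-fold and 3.58-fold) and 1 lower, against 3.33% and 0.774% of all genes, with a median of −0.11. TH-treated NASH against control had 6 higher and 2 lower, against 5.57% and 2.42% of all genes, and a median of 0.24.

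**Figure D4:**
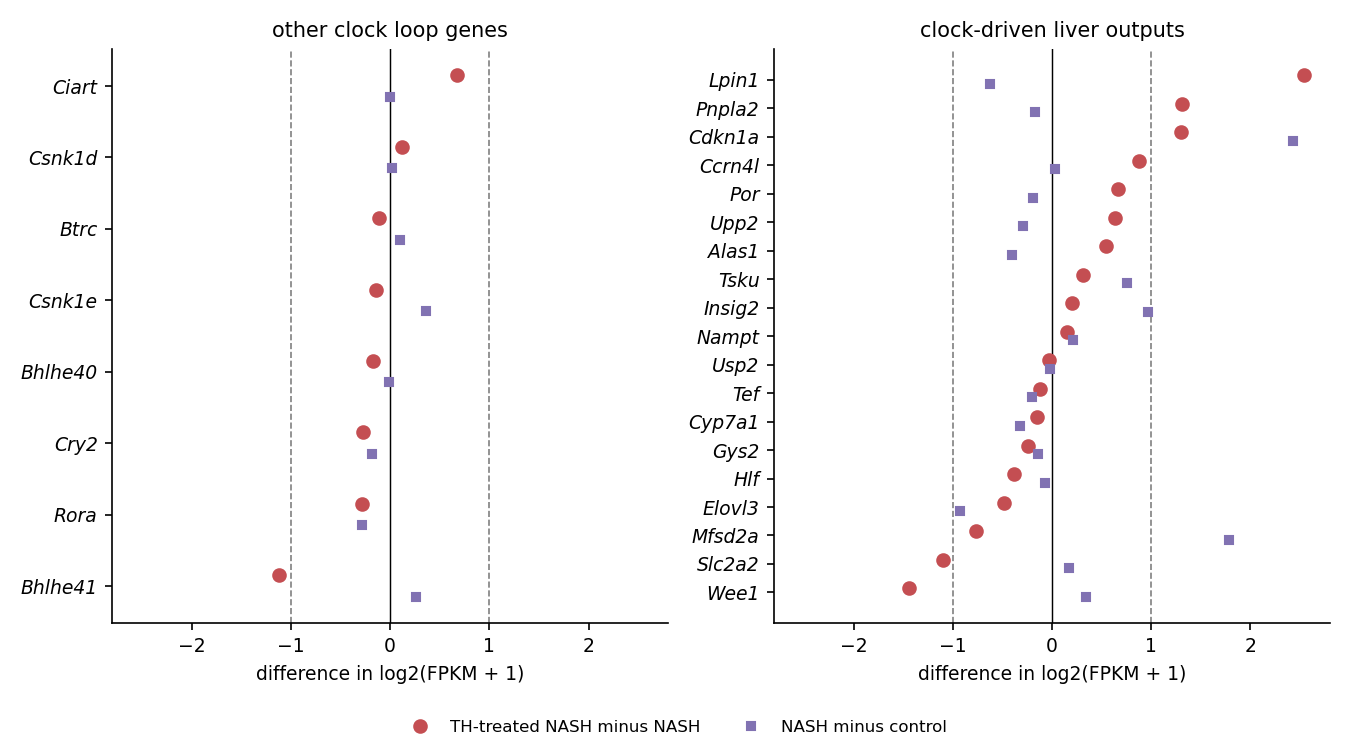
Differences in log2(FPKM + 1) for 8 other clock loop genes of at least 1 FPKM (left) and 19 clock-driven liver genes (right), TH-treated NASH minus NASH as circles and NASH minus control as squares; Ccrn4l is the table's name for Noct, and dashed lines mark 2-fold. Bhlhe41 is the only loop gene shown past a dashed line (−1.12), while outputs range from Wee1 (−1.44) to Lpin1 (2.54) for TH-treated NASH minus NASH.

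Genes that follow glucocorticoids, feeding or temperature, which also act on clock genes, were set beside these values; their part in them was not tested. Of 12 glucocorticoid targets, 7 were at least 2-fold higher in TH-treated NASH than in NASH and 0 lower, against 2.73% and 2.77% of all genes, with a median of 1.25. Among them the metallothionein gene Mt2 was 10.9-fold and Tat, tyrosine aminotransferase, 3.39-fold higher, and Fkbp5, a glucocorticoid receptor co-chaperone gene, stood at 22.1 FPKM in TH-treated NASH, 9.09 in NASH and 10.2 in control. Of the 12, 11 were above 0 and 1 was below, Klf9, at 15.9 FPKM in TH-treated NASH against 23.3 in NASH. Cdkn1a is also among the clock-driven liver genes above, so it counts in both lists. The lists were chosen with earlier results of these data known, so these counts are a description. Several of these targets also answer to inflammation or metals. In NASH against control 3 of the 12 were higher and 1 lower, against 3.33% and 0.774% of all genes.

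Of 10 fasting genes, 4 were at least 2-fold higher in TH-treated NASH than in NASH and 0 lower, set against the same 2.73% and 2.77%, with a median of 0.79. Igfbp1, an insulin-repressed binding protein gene, was 17.5-fold and Pdk4, a pyruvate dehydrogenase kinase gene, 4.57-fold higher. Of 10 feeding genes, 1 was at least 2-fold higher in that comparison, Pnpla3 at 4.64-fold, and 3 were lower. These 3 include the lipogenic regulator Srebf1 (3.26-fold lower) and the fatty acid desaturase gene Scd1 (2.68-fold lower). The median of the 10 was 0.11, with 6 above 0 and 4 below. In NASH against control, where 3.33% of all genes were higher and 0.774% lower, 4 feeding genes were higher and 0 lower, and 0 fasting genes were higher and 1 lower, Pck1 at 2.31-fold. Of 11 genes that follow body temperature, 10 reached 1 FPKM, and 0 of these passed 2-fold on the log2(FPKM + 1) scale in any comparison. The shares of all genes were 5.5% (TH-treated NASH against NASH), 4.1% (NASH against control) and 7.99% (TH-treated NASH against control). By FPKM ratio, Hspa1b was 2.12-fold lower in TH-treated NASH than in NASH (1.71 to 2.63). Creld2 was 2.03-fold lower in NASH than in control (1.93 to 2.14). The cold-inducible Cirbp stood at 23.5 FPKM in TH-treated NASH, 16.5 in NASH and 20.3 in control, and the heat shock gene Hsph1 at 8.49 FPKM in TH-treated NASH, 11.7 in NASH and 9.38 in control, so the 2 genes had opposite orders of NASH and TH-treated NASH.

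The genes most like Dbp across the 3 libraries, by Euclidean distance between log2(FPKM + 1) values centred on each gene's mean among 7148 genes of at least 5 FPKM in any library, were Ap1ar (distance 0.00976), Lhpp, Atg7, Klhl21 and Gm16157. Ap1ar stood at 7.95 FPKM in TH-treated NASH, 12.2 in NASH and 10.9 in control. With 3 points per profile such likeness is common: 164 genes lay within 0.1 of Dbp. For Npas2, whose profile on this scale is nearly flat, the nearest were Csk (0.00993), Efr3a, Gps1, Vdac1 and Rnf11, and 555 genes lay within 0.1.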

How the data were processed

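PolyA RNA from mouse liver was selected with oligo(dT) beads and fragmented before cDNA synthesis, per the labels' protocols. TopHat2 and HTSeq were used, per the submitters' processing notes; the sources used here give neither versions, settings and strand mode nor a genome build. The authors deposited FPKM in 1 column for each library, with each gene's length. FPKM times gene length came in whole multiples of 1 step per library (100% of values above 0 whole within 0.01 fragment), which gave fragments; library totals were 38303410 (TH-treated NASH), 47009255 (NASH) and 54576236 (control).

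Differences are log2(FPKM + 1), called from 2-fold or 1.5-fold, over genes reaching 1 FPKM in one library or the other; lists kept members of at least 1 FPKM in any library. Fold ratios use FPKM with exact conditional binomial (Clopper-Pearson) 95% intervals, and levels exact Poisson intervals. Python 3.11.15, pandas 2.3.3 and SciPy 1.17.1 were used. Of 130 entries in 12 lists, 129 were found, some by gene ID under an older symbol. Named were all members, other loop genes and up to 5 genes per list with the largest differences. The 5 genes nearest to Dbp and to Npas2 were named too. Tef, Hlf, Usp2, Fkbp5, Klf9, the markers set apart from their sums, the overlapping genes and the member pairs were chosen after values were seen. The members and lists were chosen with earlier results of these data known. The 2-fold call and the ratio interval were tested on simulated NASH and control counts that held counting error only. The scalings, pair ratios, nearest genes and promoter search were not tested in this way. No sample was left out; a few genes that the rule names count in the list totals but are not reported here.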

Additional observations from a re-analysis of the deposited data

How the results depend on the processing

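Of 180 member differences recomputed under 6 alternatives (pseudocounts of 0.1 and 5 FPKM, scaling to equal FPKM totals, by median-of-ratios or by TMM, and centring on the median of all genes, the last chosen after seeing the data), 175 kept their sign; the other 5 were Cry1 and Dbp in NASH against control, between −0.05 and −0.01. For TH-treated NASH against NASH, 1 member passed 2-fold with a pseudocount of 0.1 FPKM (Npas2, −1.19), 1 after scaling to equal totals (Nr1d1, −1.03) and 2 at 1.5-fold. For TH-treated NASH against control, 1 member, Nr1d1, passed with a pseudocount of 0.1 FPKM, after each of the 3 scalings, after centring and at 1.5-fold, and for NASH against control 1 passed at 1.5-fold. In these settings and comparisons the passing members were lower in the first library named. None passed at 4-fold. The cause was not tested.

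Counts of all genes moved by over 1.5 times in 13 cases. For TH-treated NASH against NASH they were 645 as deposited, 1149 and 317 with pseudocounts of 0.1 and 5 FPKM, and 2056 and 129 at 1.5-fold and 4-fold. For NASH against control they were 472, 1025, 155, 1504 and 47 in that order, and 307 among genes of at least 5 FPKM. For TH-treated NASH against control they were 917, 1599, 352, 2618 and 148. Of the genes called, 49.6% were higher in TH-treated NASH than in NASH and 39.2% after scaling to equal totals; 81.1% were higher in NASH than in control and 65.5%, 65.6% and 70.2% after TMM, median-of-ratios and centring; 69.7% were higher in TH-treated NASH than in control and 53.9%, 55.2% and 57.4% after the same. No paired analysis was possible because each group holds 1 library. At these depths Npas2 rests on 3 to 34 fragments, so its folds are the least precise.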
